A study of Mus musculus with 12 samples.

Results

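Divergent protein-coding promoter pairs are places where a gene read to the left and a gene read to the right begin back to back and share the stretch of DNA between them. They were taken from the GENCODE M21 annotation of the mouse genome mm10 (GRCm38), on chromosomes 1 to 19 and X. A pair was kept when its genes lie on opposite strands, the minus-strand 5′ end comes first, and the ends are at most 1000 bp apart. The rule gave 754 pairs, which hold 1487 of 21755 protein-coding genes (6.84%), with 21 genes in more than 1 pair. The region of a pair ran from 1 kb inside the left gene to 1 kb inside the right gene. The other 20268 protein-coding starts, each with 1 kb on either side, were used for comparison, and 771 of these faced the start of a noncoding gene within 1 kb. A pair region thus holds both gene starts, while a comparison region is built around a single start.

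Chromatin came from C2C12 cells, a line of mouse myoblasts, profiled by CUT&RUN, where an antibody guides a nuclease that cuts out the DNA its target sits on. Antibodies against MBD2 and H3K4me3 were used on cells harvested at day 0, at day 1 and at day 5 of myogenic differentiation, for which DMEM with 2% horse serum is given. At day 5 the multinucleate myotubes and the reserve cells, which stay single, had been parted by brief trypsin treatment. Each antibody and state was 1 library of the cell line, and the labels name no allele or agent beyond the medium, so no comparison between states has a replicate and none was tested. The 4 IgG libraries were not analysed here, so the MBD2 peaks are not set against IgG.

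A bidirectional promoter lets a pair of genes share transcription factors and one nucleosome-poor core, and housekeeping, DNA repair and histone genes are well known for this layout. H3K4me3 is laid down on the nucleosomes next to active starts, most strongly on the transcribed side. MBD2 recognises methylated CpG and is a subunit of the NuRD complex, which removes acetyl groups from histones and moves nucleosomes. CCAAT, read on either strand, is the core of the sites bound by the factor NF-Y, and is common in promoters of cell cycle and histone genes.

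The DNA between the starts of 7 pairs is shown because the pairs differ in MBD2, in CpG and in CCAAT boxes, on which the results turn. All are the plus strand of GRCm38, read from its genome sequence, 5′ to 3′, with each CCAAT, or ATTGG where the box lies on the minus strand, in capitals. Where the starts lie more than 300 bases apart, the middle 300 bases are given, and elsewhere the whole stretch between the starts. The first 5 pairs carried MBD2 at day 0 and the last 2 did not. They are Srgap2-Fam72a at chr1:131527478-131527777, Fbxo24-Lrch4 at chr5:137629003-137629120, Hist1h2ag-Hist1h2bj at chr13:22042945-22043213, Tbc1d10b-Mylpf at chr7:127208530-127208829, Cdca2-Kctd9 at chr14:67715842-67715936, Atp5h-Kctd2 at chr11:115419963-115420127 and Med22-Rpl7a at chr2:26910678-26910763. Each stretch lies between genes, and none overlaps another annotated gene.
Srgap2-Fam72a: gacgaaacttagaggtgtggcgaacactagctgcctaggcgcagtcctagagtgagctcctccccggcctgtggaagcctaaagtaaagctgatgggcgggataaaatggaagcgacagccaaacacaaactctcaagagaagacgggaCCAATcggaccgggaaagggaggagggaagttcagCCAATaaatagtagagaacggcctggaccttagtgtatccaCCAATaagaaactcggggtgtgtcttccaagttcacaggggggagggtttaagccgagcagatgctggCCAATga
Fbxo24-Lrch4: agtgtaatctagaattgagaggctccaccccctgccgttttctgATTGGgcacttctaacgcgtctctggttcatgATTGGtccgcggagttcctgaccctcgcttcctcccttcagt
Hist1h2ag-Hist1h2bj: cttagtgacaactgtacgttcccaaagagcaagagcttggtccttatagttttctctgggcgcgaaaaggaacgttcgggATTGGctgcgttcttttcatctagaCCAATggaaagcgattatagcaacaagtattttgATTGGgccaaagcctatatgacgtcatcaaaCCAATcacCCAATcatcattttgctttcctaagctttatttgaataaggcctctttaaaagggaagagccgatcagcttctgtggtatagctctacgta
Tbc1d10b-Mylpf: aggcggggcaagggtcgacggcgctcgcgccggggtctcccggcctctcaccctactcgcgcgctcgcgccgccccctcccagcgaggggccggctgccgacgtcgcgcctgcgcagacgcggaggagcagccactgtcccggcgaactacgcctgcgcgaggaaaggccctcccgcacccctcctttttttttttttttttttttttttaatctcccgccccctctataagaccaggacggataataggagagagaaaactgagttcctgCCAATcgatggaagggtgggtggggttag
Cdca2-Kctd9: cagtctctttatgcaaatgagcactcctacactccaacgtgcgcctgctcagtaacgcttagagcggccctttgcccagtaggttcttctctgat
Atp5h-Kctd2: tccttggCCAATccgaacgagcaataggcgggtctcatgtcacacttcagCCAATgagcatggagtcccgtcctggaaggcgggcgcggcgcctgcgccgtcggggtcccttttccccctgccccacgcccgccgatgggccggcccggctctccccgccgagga
Med22-Rpl7a: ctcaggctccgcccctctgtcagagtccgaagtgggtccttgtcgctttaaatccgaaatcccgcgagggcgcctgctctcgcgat
The 300 bases of Srgap2-Fam72a hold 4 CCAAT boxes and 12 CpG, and the 269 bases between the histone genes hold 5 boxes and 10 CpG. The 118 bases of Fbxo24-Lrch4 hold 2 boxes. Tbc1d10b-Mylpf is the CpG-rich one among those with MBD2, with 32 CpG and 1 box in 300 bases, and Cdca2-Kctd9 has 4 CpG and no box in 95 bases. Of the pairs without MBD2, Atp5h-Kctd2 has 2 boxes and 18 CpG in 165 bases, and Med22-Rpl7a has 9 CpG and no box in 86 bases. The stretches differ in length, while the CCAAT shares of pairs below are counted in the 300 bases centred between the starts. The letters shown thus go both ways for single pairs.

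The distance between the 5′ ends of a pair ranged from 1 to 987 bp with a median of 129.5 bp, and 618 pairs (82.0%) lay within 300 bp. Just inside the limit, 11 pairs with distances of 904 to 987 bp included 8 with H3K4me3 and 4 with MBD2 at day 0. Just outside it, 12 pairs with distances of 1007 to 1096 bp included 10 with H3K4me3 and 5 with MBD2. Several textbook pairs did not enter, since the annotated genes overlap at their 5′ ends: this was so for Hspd1-Hspe1 (chaperonin) and Col4a1-Col4a2 (basement membrane collagen). Of such opposite-strand starts that overlap by up to 1000 bp there were 457, and they carried MBD2 at day 0 in 18.4% (95% exact binomial interval 14.9 to 22.2%) and H3K4me3 in 93.0% (90.3 to 95.2%).

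Wherever 4 values follow each other, they stand for day 0, day 1, myotubes and reserve cells. The deposited lists hold 14941, 452, 287 and 111 MBD2 peaks on these chromosomes, and 15910 to 26024 H3K4me3 peaks. Of 5 myoblast marker genes, all had H3K4me3 at the annotated start in every state, and of 7 myotube markers 1, 7, 6 and 5 had it. Of 10 marker genes of blood, endothelium, epithelium, fat, neurons and liver, 0 to 2 had it in any state. Ckm was the only myotube marker with the mark at day 0 and the only such marker without it in myotubes. Its next annotated transcript start lies 6249 bp downstream of the start used here. Sequencing depth is unknown, and the intervals printed cover counting error over regions only.

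Nearly all pairs were marked by H3K4me3 in every state. At day 0 a peak lay over 712 of 754 pairs (94.4%, 92.5 to 96.0%) against 51.6% (50.9 to 52.3%) of the other starts, with 54.5% over all protein-coding starts. The later lists gave shares of 94.7%, 94.3% and 93.9% in pairs, beside 54.2%, 55.3% and 52.7% over all protein-coding starts. Other starts that face a noncoding gene lay between, at 79.2% at day 0. These intervals do not meet at day 0, and the order was the same in all 4 H3K4me3 libraries. Of the 20268 other starts, 9933 had 0 to 9 CpG, counted as described below. At day 0 H3K4me3 marked 19.0% of these, against 59.4% of starts in pairs with as few CpG. For 10 to 19 CpG it was 75.2% against 94.1%, and for 20 to 24 CpG 87.0% against 98.3%. At 35 or more CpG the shares were 89.2% and 99.2%. The part of CpG content in the difference over all regions was not tested.

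MBD2 was also found more often at the pairs. At day 0 it lay over 170 pairs (22.5%, 19.6 to 25.7%), against 9.30% (8.90 to 9.70%) of the other starts and 10.2% of all protein-coding starts. A pair region holds both gene starts and a comparison region is built around a single start. With comparison regions as wide as the median pair region of 2130 bp, other starts had MBD2 in 9.42% and H3K4me3 in 51.7% at day 0. The part that holding both starts has in the differences, for H3K4me3 as for MBD2, was not tested. The highest-fold peaks of the 170 pairs were 165 distinct peaks, since some neighbouring pairs share a peak. The day 1 list gave 27 pairs with MBD2 (3.58%, all starts 0.956%). Myotubes gave 13 (1.72%, all starts 0.602%), and reserve cells 8 (1.06%, all starts 0.253%). The MBD2 lists shorten from 14941 to 111 peaks, and with the 111 strongest peaks of each list 11 pairs carried MBD2 at day 0 (1.46%) and 11 at day 1. The fall in pairs with MBD2 after day 0 therefore cannot be told apart from the length of the lists.

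**Figure D1:**
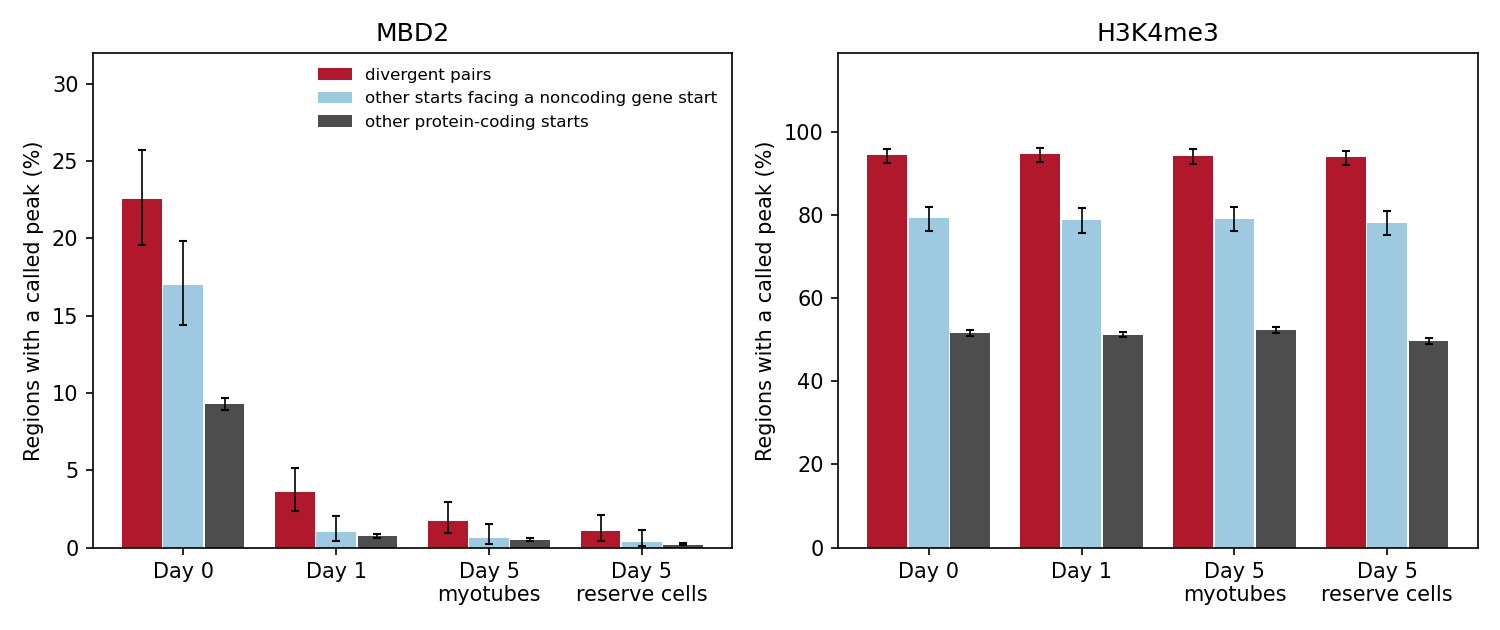
Share of regions with a called peak (%, linear axes from 0) for MBD2 (left) and H3K4me3 (right) in the 4 states, with exact 95% binomial intervals. Divergent pairs stand at 22.5% for MBD2 and 94.4% for H3K4me3 at day 0, above the other protein-coding starts at 9.30% and 51.6%, with starts that face a noncoding gene between them.

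MBD2 at the pairs went with H3K4me3. All 170 pairs with MBD2 at day 0 carried H3K4me3. None of the 42 unmarked pairs had MBD2, which for 42 pairs allows a share of up to 8.41% (upper exact bound). This was not particular to pairs: 96.2% of the other starts with MBD2 carried H3K4me3, and 0.724% of the unmarked other starts had MBD2. The MBD2 summit lay under an H3K4me3 peak in 169 of the 170. Among marked regions only, MBD2 at day 0 was present at 23.9% of pairs (20.8 to 27.2%) and 17.3% of other starts (16.6 to 18.1%), with 18.1% over all marked protein-coding starts. The gap between pairs and other starts was thus narrower among marked regions than over all regions. The marked pairs of the later states had MBD2 in 3.78%, 1.83% and 1.13%, where all marked starts had 1.70%, 0.990% and 0.392%. Marked starts that face a noncoding gene had MBD2 in 21.3%, whose interval overlaps that of the pairs.

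The 38 pairs with no H3K4me3 in any of the 4 states were CpG-poor, with a median of 6.5 CpG in the 300 bases centred between the starts, beside 25 for the 706 pairs marked in all 4. None of the 38 had MBD2 in any state. Among them was Col4a4-Col4a3, which encodes chains of a specialised basement membrane collagen and was the only pair of the collagen and matrix list. Hist1h2ba-Hist1h2aa, a pair of testis histone variants, and Smyd1-Cd8b1 were unmarked too. For Smyd1, a muscle methyltransferase, the annotated gene start is that of the most upstream transcript, and further transcripts start deep inside the gene.

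A single H3K4me3 peak usually spanned both starts. At day 0 this was so in 688 of the 712 marked pairs (96.6%, 95.03 to 97.8%), and the later shares were 95.8%, 96.8% and 96.5%. Separate peaks, 1 at each start, were called at 0 pairs in all 4 lists. The H3K4me3 peaks were long beside the distances: the median peak over a pair was 3389 bp at day 0 and 2635 bp at the other starts. Even for starts more than 400 bp apart, 66 of 79 marked pairs (83.5%) had 1 peak over both, while 5 had the mark over the minus-strand start only and 6 over the plus-strand start only.

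Within the shared peak, the strongest point lay between the genes in a minority of pairs, set against a stretch that makes up 7.91% of the region on average at day 0 and in myotubes. The H3K4me3 summit lay between the starts in 31 of 712 pairs at day 0 (4.35%, 2.98 to 6.12%), on the plus-strand gene side in 332 and on the minus-strand gene side in 349. The myotube list had 81 of 711 summits there (11.4%, 9.15 to 14.0%), above the share of that stretch, and the reserve cell list 29 of 708 (4.10%). At other starts 86.0% of the H3K4me3 summits lay downstream of the start. Of the MBD2 summits, 80 of 170 at day 0 (47.1%, 39.4 to 54.9%) lay between the starts, a stretch that makes up 11.4% of the region on average in those pairs. The MBD2 summit was within 250 bp of the midpoint in 75.3% of pairs, with a median distance of 137.5 bp, beside 522.5 bp for H3K4me3. In the later lists 15 of 27, 8 of 13 and 4 of 8 MBD2 summits lay between the starts. Other starts had 66.7%, 65.8%, 47.2% and 18 of 40 of their MBD2 summits upstream in the 4 lists, with no upstream majority in myotubes and reserve cells.

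**Figure D2:**
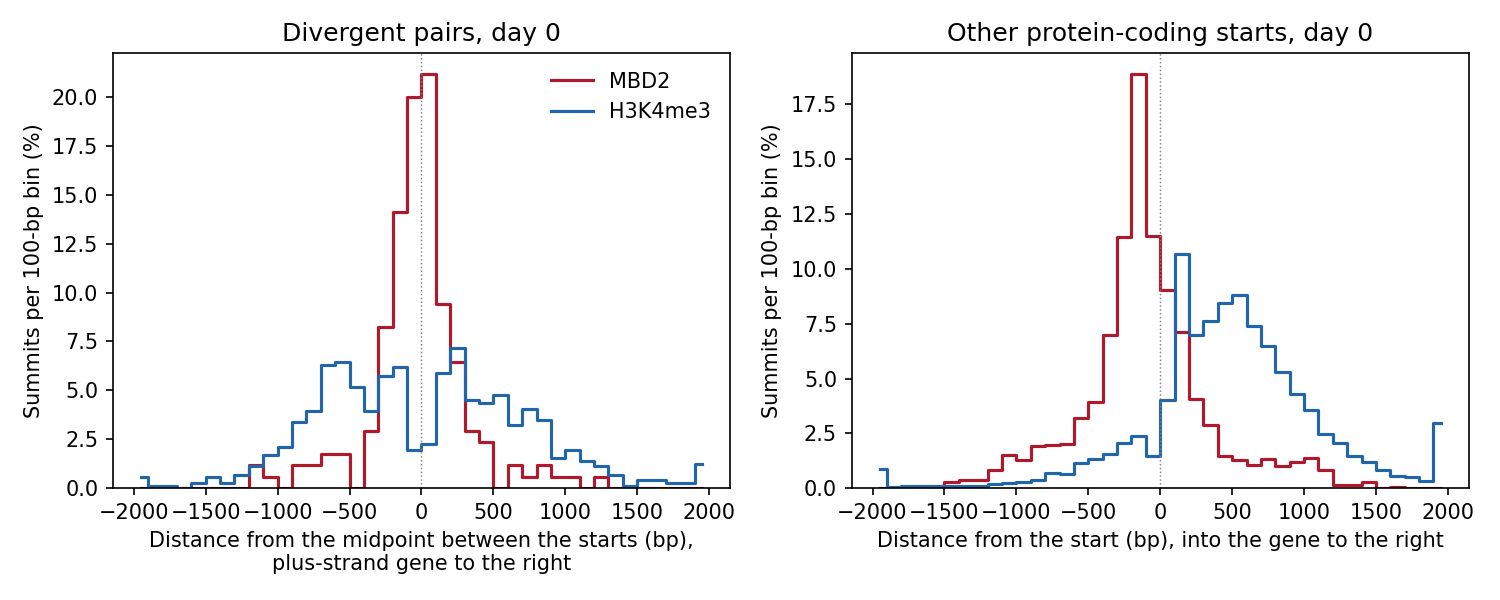
Position of peak summits at day 0, as the share of summits per 100-bp bin (%), for MBD2 (red) and H3K4me3 (blue) at divergent pairs (left, distance from the midpoint between the starts) and other protein-coding starts (right, distance from the start); summits farther out are collected in the end bins. At pairs MBD2 piles up at the midpoint, where H3K4me3 has a dip with shoulders on both gene sides; at other starts MBD2 lies just upstream and H3K4me3 downstream.

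MBD2 was more frequent at pairs whose starts lie farther apart. Among marked pairs at day 0 it was present in 7.09% (3.29 to 13.0%) at 1 to 50 bp, 13.1% at 51 to 100 bp, 25.4% above 100 and up to 200 bp, 38.4% above 200 and up to 400 bp and 45.6% (34.3 to 57.2%) beyond. The region searched also grows with the distance, and its part in this order was not tested. The median CpG count of the 300 bases at the midpoint fell from 28 to 12 over the same classes. Among pairs with 20 or more CpG the share still went from 9.80% at up to 100 bp to 19.7% in the next class and 31.1% at more than 200 bp. With fewer CpG it went from 14.9% to 39.3% and then to 57 of 114 pairs.

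CpG content and MBD2 went in opposite directions at the pairs. The 300 bases held a median of 24 CpG in pairs and 10 at other starts (250 bases before to 50 after the start), or 19 at other marked starts. Marked pairs with MBD2 at day 0 had a median of 19 CpG and marked pairs without it 26. Counted by gene start, MBD2 was present at 44.4% (31.9 to 57.5%) of marked starts in pairs with 0 to 9 CpG, against 14.7% (13.1 to 16.4%) of other marked starts. The values were 37.4% against 18.8% for 10 to 19 CpG and 24.5% against 19.3% for 20 to 24 CpG, where the intervals overlap. At 25 to 29 CpG the shares were 19.7% and 19.4%, and at 35 or more 10.2% and 13.0%. Both starts of a pair share the value of their region, so these intervals over starts are too narrow. Counted once per pair, MBD2 was present at 39.6% (33.1 to 46.5%) of marked pairs below 20 CpG and 17.0% (13.8 to 20.6%) at 20 or more, against 17.3% and 17.4% of other marked starts. Of the 217 pairs below 20 CpG, 13 were histone pairs, 12 of them with MBD2, and without histone genes the share was 36.3% (29.7 to 43.3%).

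CCAAT boxes went with MBD2. At least 1 box was present in the 300 bases of 45.1% of pairs and 38.5% of other starts. Among pairs with MBD2 at day 0 it was 65.9% (58.2 to 73.0%), among marked pairs without MBD2 38.6% (34.4 to 42.8%). Read the other way, MBD2 was present at 14.8% of marked pairs with no box, 21.4% with 1 and 50.7% (42.3 to 59.0%) with 2 or more. Other marked starts had the same order, with 13.0%, 17.6% and 35.9%. Pairs with and without a box had 18.6% against 6.50% for starts up to 100 bp apart and 52.1% against 27.6% for starts more than 200 bp apart. In the class between them it was 31 of 100 pairs against 18 of 93, with overlapping intervals. Split by CpG, the shares were 27.2% against 9.69% at 20 or more CpG and 48.7% against 29.4% below. Without the histone pairs, the share with 2 or more boxes was 46.7%, and that with a box below 20 CpG was 43.1% (33.4 to 53.3%), whose interval overlaps that without a box (20.8 to 39.3%).

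**Figure D3:**
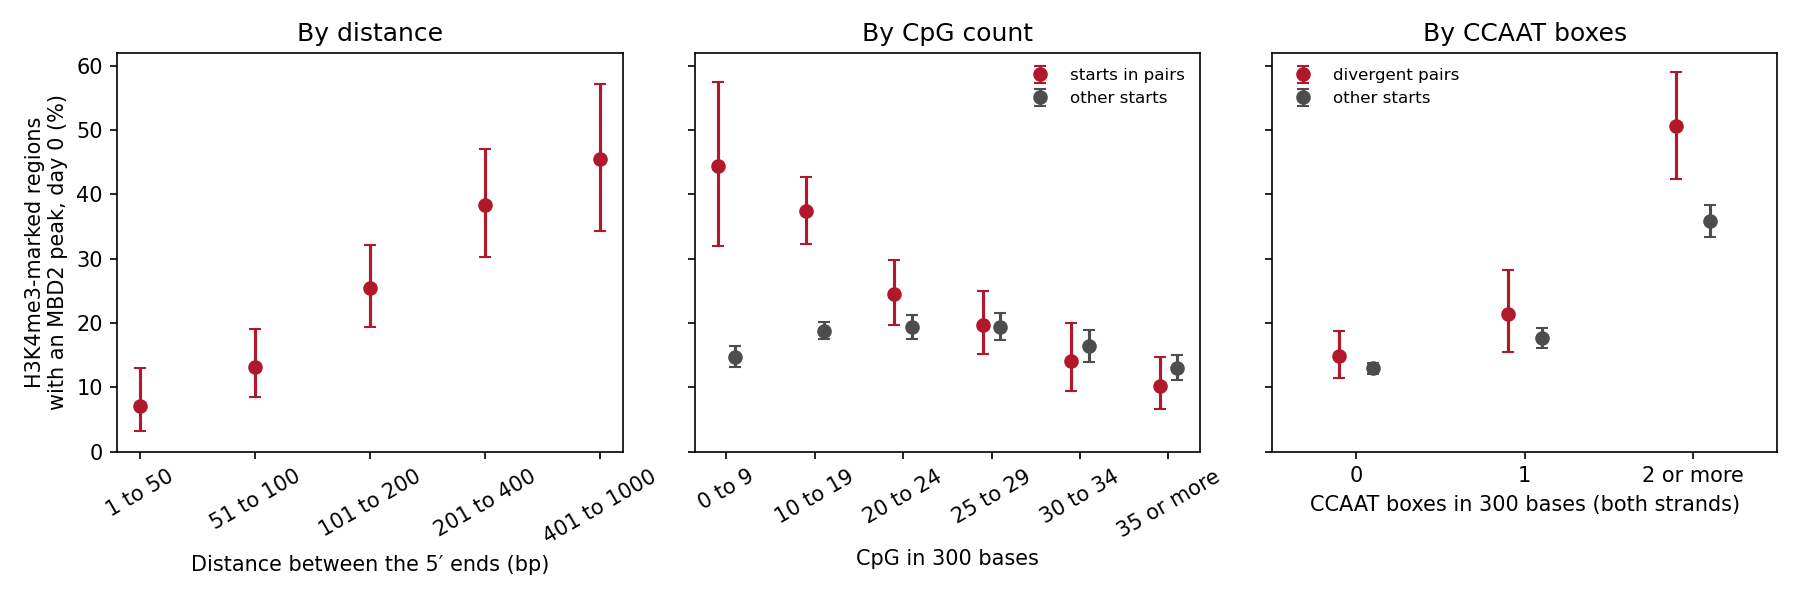
Share of H3K4me3-marked regions with an MBD2 peak at day 0 (%, with exact 95% binomial intervals) by distance between the 5′ ends of a pair (left), by CpG count in 300 bases (middle, starts in pairs in red, other starts in grey) and by the number of CCAAT boxes in 300 bases (right). The share goes from 7.09% to 45.6% with distance, falls with CpG in pairs and not in other starts below 30 CpG, and is 50.7% in pairs with 2 or more boxes.

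Of the other 7 motifs searched on both strands, several were more common at pairs than at other starts, and none showed a higher share of MBD2 at pairs with separate intervals. CCGGAAGT, a site of the ETS family, was present in 12.9% of pairs and 4.13% of other starts, or 7.15% of other marked starts. Marked pairs with it had MBD2 in 12.6% (6.70 to 21.03%), and those without it in 25.6% (22.2 to 29.2%). AGATGGCG, a YY1 site, was in 6.76% of pairs and 1.99% of other starts, GCATGCGC (NRF1) in 6.50% and 3.16%, TGACGTCA (CRE) in 4.38% and 2.30%, and GGGCGG (Sp1 family) in 68.0% and 41.5%. Other marked starts lay nearer to the pairs, with 3.26% for AGATGGCG, 5.16% for GCATGCGC, 3.51% for TGACGTCA and 63.0% for GGGCGG, and the intervals of GCATGCGC and TGACGTCA overlapped those of the pairs. TATAAA was rarer at pairs, at 4.38% against 13.3% of other and 7.43% of other marked starts. The E-box CAGCTG of the myogenic factors was in 11.7% (9.47 to 14.2%) of pairs and 15.6% of other starts. Other marked starts had it in 14.5% (13.8 to 15.2%), whose interval overlaps that of the pairs. Each match is a description of the letters and no measurement of a bound factor.

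The strongest MBD2 peak of the whole day 0 list lay over Srgap2-Fam72a, and 4 of the 20 highest by fold lay over pairs, where 174 of all 14941 peaks did (1.16%). Of those 20 peaks 11 lay at any protein-coding start, and of the 20 highest in myotubes 0 lay over pairs. Fold enrichment is the authors' ratio of the fragments at the summit to the local background, and folds from different libraries are given side by side and not compared. Srgap2 encodes a protein that shapes the cell membrane, and Fam72a a small protein linked to uracil repair. MBD2 folds at this pair were 116, 56.7, 6.95 and 18.5. Its day 0 peak was 1177 bp long, covered both starts and had its summit 36 bp from the midpoint. H3K4me3 folds there were 78.6, 124, 38.9 and 64.9.

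Rnf5-Agpat1, which joins a membrane-bound ubiquitin ligase to a phospholipid enzyme, had MBD2 folds of 99.5, 27.5, 4.03 and 8.22. Cdca2-Kctd9, whose Cdca2 product helps chromosomes decondense after mitosis, had 69.8, 26.4, 4.47 and 8.73. Fbxo24-Lrch4 had 43.4, 10.1, 5.89 and 6.68. All 3 kept a peak in every list. Cbx5-Hnrnpa1, which encodes the heterochromatin protein HP1 alpha and an RNA-binding protein, had 24.4, 8.36, 6.14 and 6.16. With Srgap2-Fam72a these make up 5 of the 6 pairs (0.796%) with MBD2 in all 4 lists, beside 11 other starts (0.0543%), and the remaining one is Fbxo24 with a predicted gene, under the same peak.

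Tbc1d10b-Mylpf joins a Rab GTPase regulator to Mylpf, the regulatory myosin light chain of fast muscle fibres. It had an MBD2 fold of 96.0 at day 0, 43.4 at day 1 and 9.25 in reserve cells, and no MBD2 peak in myotubes. H3K4me3 covered 2000 of the first 2000 bp of the Tbc1d10b side in every state. On the Mylpf side it covered 1108, 2000, 2000 and 815 bp. The whole H3K4me3 peak was 4503, 8248, 10708 and 3522 bp long. The MBD2 summit at day 0 lay 320 bp from the midpoint, on the Mylpf side.

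**Figure D4:**
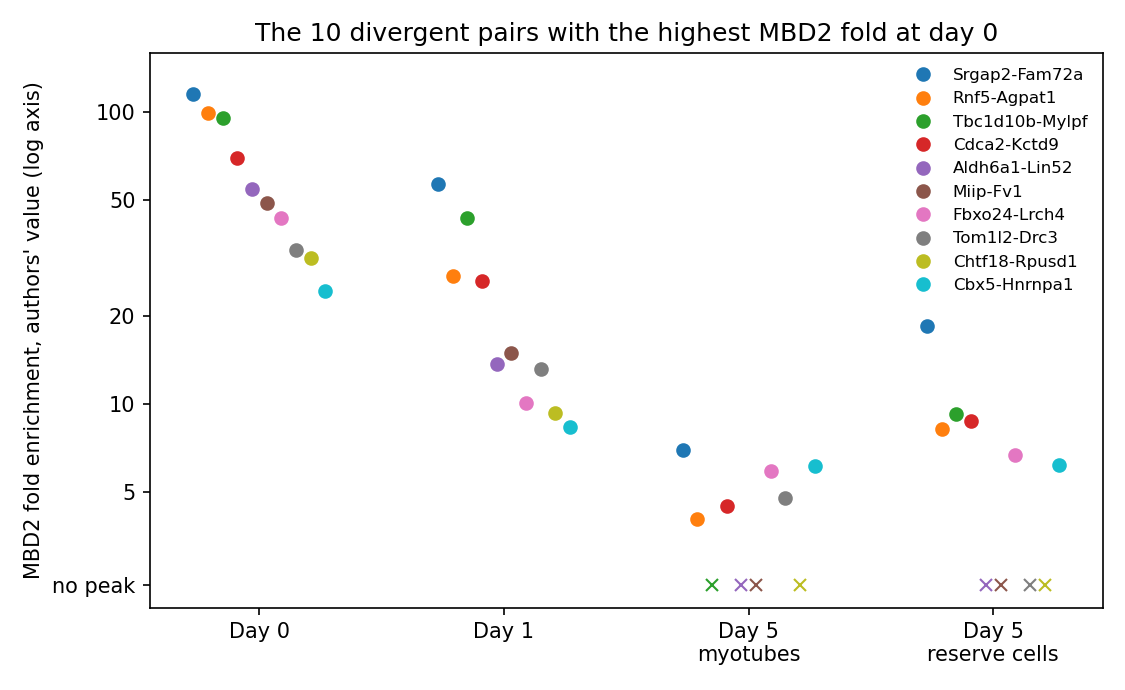
MBD2 fold enrichment (the authors' value, log axis) of the 10 divergent pairs of named genes with the highest fold at day 0, in each of the 4 libraries; crosses mark states without a peak. All 10 have a peak at day 1, with folds of 8.36 to 56.7, while 4 lack one in myotubes and 4 in reserve cells.

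A larger share of pairs than of other starts kept MBD2 at day 1. Of the 170 pairs with MBD2 at day 0, 27 had it at day 1 (15.9%, 10.7 to 22.3%), against 7.59% (6.43 to 8.88%) of other starts. This leaves 143 pairs without it, or 84.1%, where over all protein-coding starts 91.2% lost the peak. Myotubes kept it at 12 pairs (7.06%, 3.70 to 12.01%) and reserve cells at 8 (4.71%, 2.05 to 9.06%), against 3.56% (2.77 to 4.49%) and 1.54% (1.03 to 2.20%) of other starts, intervals that overlap, with losses over all starts of 95.9% and 98.0%. Peaks of higher fold at day 0 were kept more often: 25 of 56 pairs with a fold of 10 or more had MBD2 at day 1 (44.6%, 31.3 to 58.5%), against 33.2% (28.2 to 38.5%) of other starts of such fold, whose intervals overlap. At folds of 6 to 10 it was 2 of 46 pairs and 19 of 548 other starts, and below 6 it was 0 of 68 pairs and 12 of 999. Only Rbbp4-Zbtb8os gained MBD2, with a fold of 4.29 in myotubes, where 0.210% of protein-coding starts without MBD2 at day 0 gained it. Rbbp4 encodes a histone-binding subunit of NuRD. No pair gained MBD2 by day 1 (0.0614% of starts) or in reserve cells (0.0563%). With equal numbers of peaks from each list the gains were 1, 4 and 2 pairs in the 3 later states. Set against myotubes, reserve cells lacked MBD2 at 7 of the 13 pairs (75.6% of starts) and had it at 2 further pairs (0.106%).

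Few pairs gained or lost an H3K4me3 peak in the full lists. Of 42 pairs unmarked at day 0, 3 gained a peak by day 1 (over all starts 1.57%) and 3 in myotubes (5.15%), and 0 in reserve cells (1.28%). Of 712 marked pairs, 1 lost it by day 1 (over all starts 1.91%), 4 in myotubes (2.96%) and 4 in reserve cells (4.37%). Set against myotubes, reserve cells lacked it at 5 of 711 pairs (5.99% of starts) and had it at 2 of 43 (1.75%). These counts turn with the setting: the stronger 50% of each list gave 32 gains and 0 losses in myotubes, 6 and 61 in reserve cells, and 87 losses from myotubes to reserve cells. With the summit required in the region, gains were 37, 48 and 48 pairs, and 16 from myotubes to reserve cells. The median H3K4me3 fold of the list was 29.1 at day 0, 38.6 at day 1 and 9.55 in myotubes. Among the gains, Asphd1-Sez6l2 had H3K4me3 folds of 5.77 at day 1 and 9.97 in myotubes. Duox2-Duoxa2, the oxidase and its maturation factor, had 5.71 and 4.95. Pecam1-Milr1 had 5.77 at day 1 and Nr2e1-Ostm1 3.60 in myotubes. Among the losses, Ifit1bl2-Ifit1, of the interferon response, had 6.12 at day 0, 7.41 at day 1, no peak in myotubes and 3.57 in reserve cells. Hspa1a-Hspa1l, a pair of heat shock genes, also had MBD2 at day 0 (fold 9.56). Its H3K4me3 folds were 4.67 at day 0, 2.90 at day 1 and 11.5 in myotubes, with no peak in reserve cells. Klc3-Ckm also counted as a loss, from 6.07 at day 0, though Ckm is the muscle creatine kinase. Its annotated gene start is the first of 3 annotated transcript starts and the next lies 6249 bp downstream. A myotube H3K4me3 peak of 5001 bp and fold 54.0 had its summit 6679 bp downstream.

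The H3K4me3 of a pair was often unequal on its sides. Over the first 2 kb of each gene, the wider side had a median of 1873.5 bp under H3K4me3 at day 0 and the narrower side 1325.5 bp. Other marked starts had 1771 bp downstream and 746.5 bp upstream, and those facing a noncoding gene 1923 and 1108 bp. These are sorted by direction and the pair values by width, so the measures are unlike. Sorted by direction, marked starts in pairs had 1581 bp downstream and 1731 bp upstream. In 266 pairs the sides differed by at least 500 bp at day 0. The same side was the wider one in 262 of these at day 1 (98.5%, 96.2 to 99.6%), in 250 of the myotube list (94.0%) and in 258 of the 265 still marked among reserve cells (97.4%). A reversal by 500 bp or more occurred in 0 pairs in each later state.

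Among the largest shifts between the sides from day 0 to myotubes were several in which the mark narrowed over a cell division gene by more than over its partner. Widths stop at 2000 bp, so a change beyond that is not seen, and a partner at 2000 bp in both states is not shown to be steady. Hmmr, a spindle protein gene, had 1940, 1638, 337 and 1008 bp, and its partner Nudcd2 had 2000, 1869, 1826 and 1446 bp. Aurka, the mitotic kinase, went through 2000, 1949, 521 and 1474 bp, beside 1793, 1707, 1688 and 1741 bp for Cstf1, an mRNA cleavage factor. Mastl, a kinase needed for mitotic entry, Zwilch and Mad1l1, of the kinetochore and spindle checkpoint, were also on the narrowing side. Zwilch went from 2000 bp at day 0 to 794 bp in myotubes, while Rpl4, a ribosomal protein gene, had 2000 bp in both.

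In the other direction, Kif20a, a mitotic kinesin, went from 2000 to 641 bp beside 1803 and 1408 bp for Brd8. Kntc1, also of the kinetochore, had 1427 and 496 bp, beside 2000 and 2000 bp for Rsrc2. Pms2, of mismatch repair, had 1849 and 785 bp, beside 1692 and 2000 bp for Aimp2. Tas1r1-Nol9 had the largest shift, and there the change was a gain: the side of Tas1r1, a taste receptor gene, had 0, 0, 1610 and 0 bp. The remaining pairs among the 6 largest shifts each way were Zranb3-R3hdm1, Mdh1b-Fastkd2 and Zbtb49-Lyar. All these pairs were chosen by the size of the shift, so their values are a description.

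Counted over gene lists, the members were not picked by the shift, though the lists were written with earlier results known. In the 8 pairs with 1 gene of mitosis and the cell cycle, the side of that gene narrowed by 500 bp or more from day 0 to myotubes in 6 and the partner's side in 0, where 14.9% of the 1412 gene sides of pairs marked in all 4 states did. The median side of the mitosis genes was 2000, 1813, 1036 and 1446 bp, and that of the partners 1887, 1672.5, 1582 and 1746.5 bp. Over the 1412 sides the median at day 0 was 1583.5 bp. Sides thus differed in their room to narrow, and some that were counted, such as Gins1 with 316 bp at day 0, could not narrow by 500 bp. The part of this in the counts was not tested. In 9 pairs with a DNA replication gene, 6 such sides narrowed by 500 bp or more and 1 of the partners' sides. These pairs hold 8 replication genes, since Rpa3 is counted with each of its partners. Of the 21 pairs with a DNA repair gene it was 9 repair sides and 4 partner sides. Fancd2, of crosslink repair, went from 1092 to 277 bp, with 1549 and 1584 bp for its partner Emc3. Brca1, of homologous recombination, had 1635 and 882 bp, with 2000 bp in both states for Nbr1, an autophagy receptor.

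In reserve cells 5 of the 8 mitosis sides narrowed by 500 bp or more and 0 of the partner sides (all sides 19.0%), and by day 1 none did (all sides 4.25%). Replication genes had 4 of 9 sides and 4 of 9 partner sides narrowed in reserve cells. Those partner sides include Umad1 and Gm45062, both partners of Rpa3, whose sides overlap and are not separate events. Repair genes had 10 of 21 and 4 of 21, and RNA polymerase and splicing genes 8 of 17 and 3 of 17. Mitochondrial ribosome genes had 2 of 18 sides and 3 of 18 partner sides narrowed in myotubes, and cytosolic ribosome genes, whose median side was at the limit of 2000 bp at day 0, 0 of 9 and 2 of 9. Of the 4 pairs with a muscle gene that were marked in all 4 states, none had that side narrower by 500 bp. Klc3-Ckm, which had H3K4me3 at day 0 and no peak in myotubes or reserve cells, is not among these 4. Myom1, of the sarcomere M band, had 835, 550, 1330 and 481 bp, and the myosin light chain gene Myl4 had 853, 916, 733 and 664 bp. In reserve cells 3 of the 4 muscle sides were narrower than at day 0. Each state is 1 library, and the myotube list had the most peaks and the lowest median H3K4me3 fold (9.55 against 29.1 at day 0), whose part in the side widths was not tested.

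**Figure D5:**
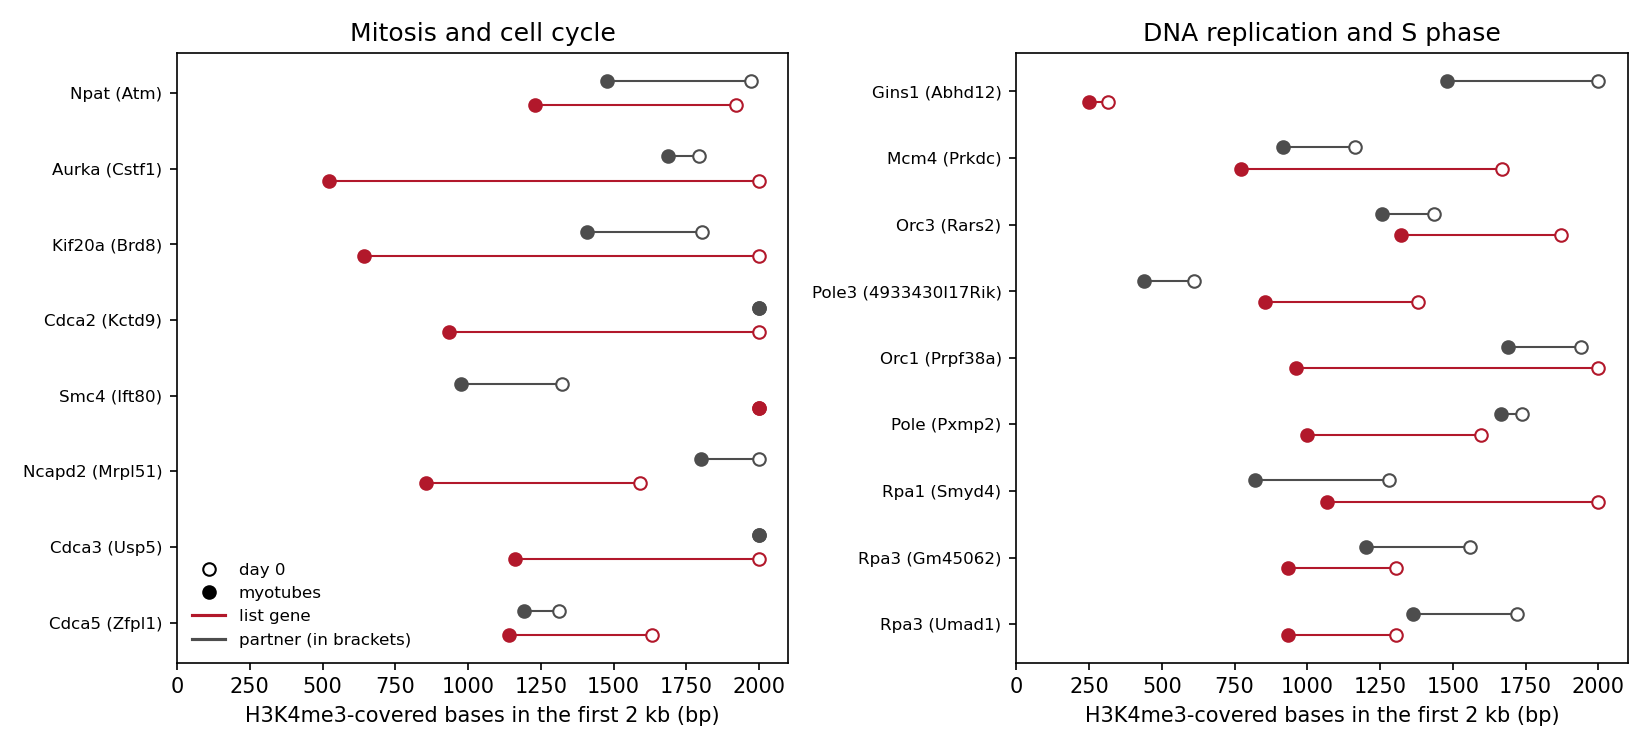
Bases under H3K4me3 in the first 2 kb of each gene (bp, up to 2000) at day 0 (open) and in myotubes (filled), for pairs with 1 gene of the mitosis list (left) or the replication list (right); the list gene is in red and its partner, in brackets, in grey. In Aurka, Kif20a and Cdca2 the list gene goes from 2000 bp to 521, 641 and 933 bp, while the partners go from 1793 to 1688, from 1803 to 1408 and stay at the limit of 2000 bp.

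Histone and DNA repair genes were often in pairs. Of 66 replication-dependent histone genes found, 27 (40.9%) were in pairs, and of 62 DNA repair genes 21 (33.9%), where 6.84% of all protein-coding genes were. RNA polymerase and splicing genes had 17 of 65 (26.2%), the respiratory chain and mitochondrial import 21 of 87 (24.1%) and mitochondrial ribosome genes 18 of 78 (23.1%). Muscle genes had 6 of 79 (7.59%).

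Over all pairs 22.5% had MBD2 at day 0, and the counts of the lists are given beside that share. Histones had MBD2 at day 0 in 12 of 14 pairs, through 11 distinct peaks, and in 23 of 39 list genes outside pairs, where 10.2% of all starts had it. Each of the 13 marked histone pairs had 2 or more CCAAT boxes in the 300 bases at its midpoint. Hist1h2ag-Hist1h2bj had the highest fold, 16.2, and Hist1h2bq-Hist1h2ao was the only histone pair with MBD2 at day 1 (12.9 at day 0, 6.997 at day 1), with the day 0 summit 1118 bp from the midpoint on the Hist1h2bq side. Histone genes are near-identical copies, so how the reads were placed among them is uncertain.

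DNA repair pairs had MBD2 at day 0 in 9 of 21 (42.9%, all pairs 22.5%), beside 6 of 41 repair genes outside pairs, and in 0 of 21 in each later state. Hscb-Chek2, with the checkpoint kinase, had a fold of 11.03, Xrcc3-Zfyve21 10.3 and Brca1-Nbr1 8.61. Atm-Npat, which joins the damage kinase to the activator of histone genes, had none. Mitosis genes had MBD2 in 4 of 8 pairs, beside 10 of 46 such genes outside pairs: Cdca2-Kctd9, Usp5-Cdca3 (fold 14.0), Aurka-Cstf1 (6.37) and Ncapd2-Mrpl51 (5.15).

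Lists of constant cell functions ranged from none to 27.3% of pairs with MBD2. It was present in 0 of 9 cytosolic ribosome pairs, beside 14 of 71 such genes outside pairs, and in 1 of 20 respiratory chain pairs, Pqbp1-Timm17b (fold 4.27). Atp5h-Kctd2, with a subunit of the ATP synthase, had none, nor had Med22-Rpl7a or Rps28-Ndufa7. Mitochondrial ribosome pairs had it in 3 of 18, with Mrps12-Sars2 the highest (10.8), and replication pairs in 1 of 9, Mcm4-Prkdc (4.30). Proteasome and chaperone pairs had it in 3 of 11 (27.3%), tRNA synthetase pairs in 1 of 5, and RNA polymerase and splicing pairs in 2 of 17. All pairs of these lists, and all 21 repair pairs, were marked by H3K4me3 in all 4 states. With 5 to 21 pairs a list, the counts are descriptions and do not show that one list differs from another.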

How the data were processed

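C2C12 cells were profiled with antibodies to MBD2 and to H3K4me3 in 4 states, with 1 library for each. Per the series' design text, fragments were trimmed (Trim Galore), mapped to mm10 (Bowtie2) and filtered (SAMtools), and MACS2 called the peaks. Their versions and settings, and any control for the calls, are not known here. That text mentions later filtering by the authors, and whether it was applied to these lists is not stated. The deposited pileup is a signal, the fragments over the summit. Fold enrichment, as deposited, is a ratio that sets this pileup over the background nearby. The authors also deposited −log10 p-values and −log10 q-values, whose damaged column names were read from the order of the columns.

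Pairs, regions, overlaps of at least 1 bp, summits and bases under peaks were computed with Python 3.11.15, numpy 2.4.6, pandas 2.3.3 and scipy 1.17.1 against GENCODE M21, and the code was tested on simulated regions. A gene's 5′ end is that of its most upstream transcript. Where several peaks met a region, the 1 of highest fold was used. CpG and motifs were read in 300 bases centred between the starts, or from 250 before to 50 after other starts. With 1 library per group no test was run. Shares carry exact Clopper-Pearson 95% intervals.

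The pairs named were, by rule, the 10 highest MBD2 folds at day 0, the 5 highest in each later list, MBD2 in all 4 lists, MBD2 in later lists only, up to 5 H3K4me3 gains and losses a state, the 6 largest side shifts each way, up to 4 pairs per gene list and textbook pairs, passing over predicted genes, and some named by it are not reported here. Unmarked pairs other than Col4a4-Col4a3, the pairs without MBD2 whose sequence is shown, and the sides of Fancd2, Brca1 and Myom1 were named after their values were seen. The members and lists were chosen with earlier results of these data known. Alternatives changed the distance limit, the reach of the region, the number of peaks, the use of summits, shared genes and the comparison starts.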

Additional observations from a re-analysis of the deposited data

How the results depend on the processing

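No paired analysis was possible because each antibody and state had 1 library and no replicate number. Of 92 recomputed main values, 56 stayed within their interval or within 1.5 times the count and 36 moved. With pairs at most 300 bp apart, MBD2 shares were 19.4% at day 0, 2.10% at day 1 and 0.809% for myotubes, and 1 H3K4me3 peak covered both starts in 98.3%, 98.0% and 98.0%. With the stronger 50% of each list, MBD2 lay at 15.0% of pairs at day 0 and H3K4me3 at 88.9% (day 0), 87.1% (day 1) and 81.6% (reserve cells). MBD2 was then lost at 93 pairs by day 1 and 104 in myotubes. H3K4me3 was gained at 7, 32 and 6 pairs and lost at 20, 0 and 61 in the 3 later states. With equal numbers of peaks, MBD2 lay at 1.46% of pairs at day 0 and 1.46% at day 1, its losses were 1, 8 and 5 pairs, and H3K4me3 gains were 5 (day 1) and 3 (reserve cells). With the H3K4me3 summit required in the region, shares were 85.8%, 89.1%, 90.1% and 91.2%, gains 37, 48 and 48 pairs, and losses 12, 16 and 7. With a reach of 500 bp, 2 pairs lost H3K4me3 by day 1. The cause of these moves was not tested, beyond the fewer peaks that 2 of the settings use by construction. Leaving out starts overlapped by an opposite-strand start, an alternative chosen after seeing the data, put the other starts at 8.91% for MBD2 and 49.7% for H3K4me3 at day 0. Gene 5′ ends follow the annotation and may not be the start used in these cells. H3K4me3 peaks are longer than most distances between starts, sides stop at 2 kb, and neighbouring pairs can share a peak.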
